A study of Mus musculus with 7 samples.

Results

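Hmgcs1, Idi1, Fdps, Fdft1, Sqle, Lss and Cyp51 encode enzymes of cholesterol synthesis, and their mRNA was compared between the prostates of NAC-treated and vehicle-treated Nkx3.1-/- mice. The genes were taken by name from the deposited expression table, with the probe set of highest mean standing for each gene. Genes with a probe set that names no other gene are called measured here, 18938 in number, and all 7 were among them. All 7 make cholesterol or its precursors, and no gene of cholesterol uptake was among them. Uptake genes were looked at through a separate list of other cholesterol genes, of which 31 of 41 were measured.

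The study asked how the antioxidant N-acetylcysteine (NAC) affects gene expression in a mouse prostate that lacks the homeobox gene Nkx3.1, a model of early prostate cancer. Every mouse in both groups was Nkx3.1-/-, of a recombinant inbred B6/129 background and 16 weeks old. Per the methods of the study, the mice received an injection of BrdU before death. The NAC group (n = 4, replicates 1 to 4) had drunk 5 mM NAC for 13 weeks from weaning, and the vehicle group (n = 3, replicates 1, 2 and 4) had plain water. Total RNA of 1 mouse was hybridised to each Affymetrix Mouse Gene 1.0 ST array, and the labels call the tissue whole prostate whereas the extraction protocol names the anterior lobe. Littermates were divided between NAC cages and vehicle cages, so cage and treatment cannot be told apart. No wild type array was analysed here, and neither was the deleted gene itself.

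Cholesterol is built from acetyl-CoA through the mevalonate pathway. Hmgcs1 makes HMG-CoA, from which mevalonate is formed; Idi1 and Fdps carry the later isoprenoid steps up to farnesyl diphosphate, which is also the source of protein prenyl groups. Fdft1 commits farnesyl diphosphate to squalene, Sqle oxidises squalene, Lss closes it into lanosterol, and Cyp51 removes a methyl group from lanosterol on the way to cholesterol. The genes share a regulator, the transcription factor SREBP2, which SCAP carries to the Golgi for cleavage when cell sterols are low and which INSIG proteins hold back when sterols are high. In the prostate, androgens are known to raise lipid synthesis, and the gland is known for a high cholesterol content.

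Prostate markers were high on all 7 arrays: the mean level of 4 of them (Tgm4, Pbsn, Hoxb13 and Msmb) lay between 12.29 and 12.58 on the log2 scale, and that of 5 luminal epithelial markers between 11.89 and 12.00. One NAC array, replicate 3, stood apart from the rest. All 6 adipocyte markers, all 6 skeletal muscle markers and all 4 lung markers measured were highest there. Their mean levels on it were 7.48, 8.11 and 9.13, against 5.85 to 6.06, 7.22 to 7.33 and 5.54 to 5.65 on the other arrays. On NAC replicate 3, 23 genes exceeded all remaining arrays by over 1 log2 unit, and on each other array 0 to 7 genes did. The 6 seminal vesicle markers ranged from a mean level of 9.19 to 11.54 over the arrays and had lower NAC than vehicle means, by a median log2 difference of -0.77. The 6 macrophage markers had higher NAC means, by a median of 0.18. The part of these cell types in the members' values was not tested. In bulk RNA, fewer cells of a type and less RNA per cell cannot be told apart.

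The promoters of 3 members are shown, and a link between promoter and expression was not tested. Of the members with a promoter here, Hmgcs1 alone matched the form of the sterol regulatory element that was searched for. Idi1 varied most between mice, and Cyp51 was the member whose groups did not overlap. RefSeq promoters running from 250 bases before to 50 after the transcription start were found for 4 of the 7 members, these 3 and Lss, and not for Fdps, Fdft1 or Sqle. Capitals mark matches on either strand to TCACNCCAC (a sterol regulatory element), CCAAT (the NF-Y box, which reads ATTGG on the other strand) and GGGCGG (the Sp1 box, CCGCCC on the other strand).
Hmgcs1, GRCm38.p6 chr13:119690101-119690400, + strand: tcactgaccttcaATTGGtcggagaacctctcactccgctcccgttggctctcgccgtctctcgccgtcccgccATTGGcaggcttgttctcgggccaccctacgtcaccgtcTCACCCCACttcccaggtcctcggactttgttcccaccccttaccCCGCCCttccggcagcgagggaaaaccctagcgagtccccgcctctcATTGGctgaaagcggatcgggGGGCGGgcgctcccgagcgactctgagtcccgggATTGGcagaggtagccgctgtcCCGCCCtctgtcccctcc
Idi1, GRCm38.p6 chr13:8885356-8885655, + strand: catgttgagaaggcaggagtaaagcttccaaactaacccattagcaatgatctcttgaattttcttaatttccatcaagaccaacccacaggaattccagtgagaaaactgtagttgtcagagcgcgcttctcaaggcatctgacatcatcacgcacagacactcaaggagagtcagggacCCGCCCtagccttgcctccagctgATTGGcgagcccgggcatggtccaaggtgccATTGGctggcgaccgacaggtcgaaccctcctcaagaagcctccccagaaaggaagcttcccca
Cyp51, GRCm38.p6 chr5:4104648-4104947, - strand: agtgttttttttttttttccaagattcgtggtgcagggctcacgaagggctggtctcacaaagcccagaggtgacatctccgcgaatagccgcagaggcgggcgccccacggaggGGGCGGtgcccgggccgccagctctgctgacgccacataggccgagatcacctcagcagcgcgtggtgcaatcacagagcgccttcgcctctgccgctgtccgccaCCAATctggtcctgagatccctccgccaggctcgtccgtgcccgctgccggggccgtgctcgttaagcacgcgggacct
The Hmgcs1 window held 1 sterol regulatory element, TCACCCCAC at position -137 from the start, with 4 NF-Y boxes and 3 Sp1 boxes. Idi1 had 0 sterol regulatory elements of these letters, 2 NF-Y boxes and 1 Sp1 box, and Cyp51 had 0, 1 and 1. In the Lss window (GRCm38.p6 chr10:76531355-76531654, + strand) the counts were 0, 1 and 2. No match overlapped another, and the E-box CACGTG was in none of the 4 windows. Among 32851 mouse promoters of the same length, 1.24% held TCACNCCAC, 37.4% CCAAT, 35.7% GGGCGG and 7.15% CACGTG. A match is a run of letters, not a measured binding site. Other forms of these elements were not searched for, so a count of 0 does not show that an element is missing.

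With NAC, 6 of the 7 members had a higher mean than with vehicle and Sqle had a lower one, but for none did the difference pass the test over all genes. The largest differences were in Fdps (0.36 on the log2 scale, a 1.28-fold higher level) and Cyp51 (0.29, 1.23-fold), and 4 of the other 5 differed by 0.07 or less. The members' median log2 difference was 0.07, beside -3e-04 over all 18938 genes, of which 49.8% were higher with NAC. In limma's test, 0 of 7 members passed a Benjamini-Hochberg adjusted p of 0.05, as did 0% of all genes, whose smallest adjusted p was 0.827. At an unadjusted p under 0.05, 2 of 7 members (Fdps and Cyp51) were higher with NAC and 0 lower, against 1.89% and 2.53% of all genes. The groups did not overlap for 1 member, Cyp51, on the higher side and for 0 on the lower, against 1.29% and 2.18% of all genes.

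**Figure D1:**
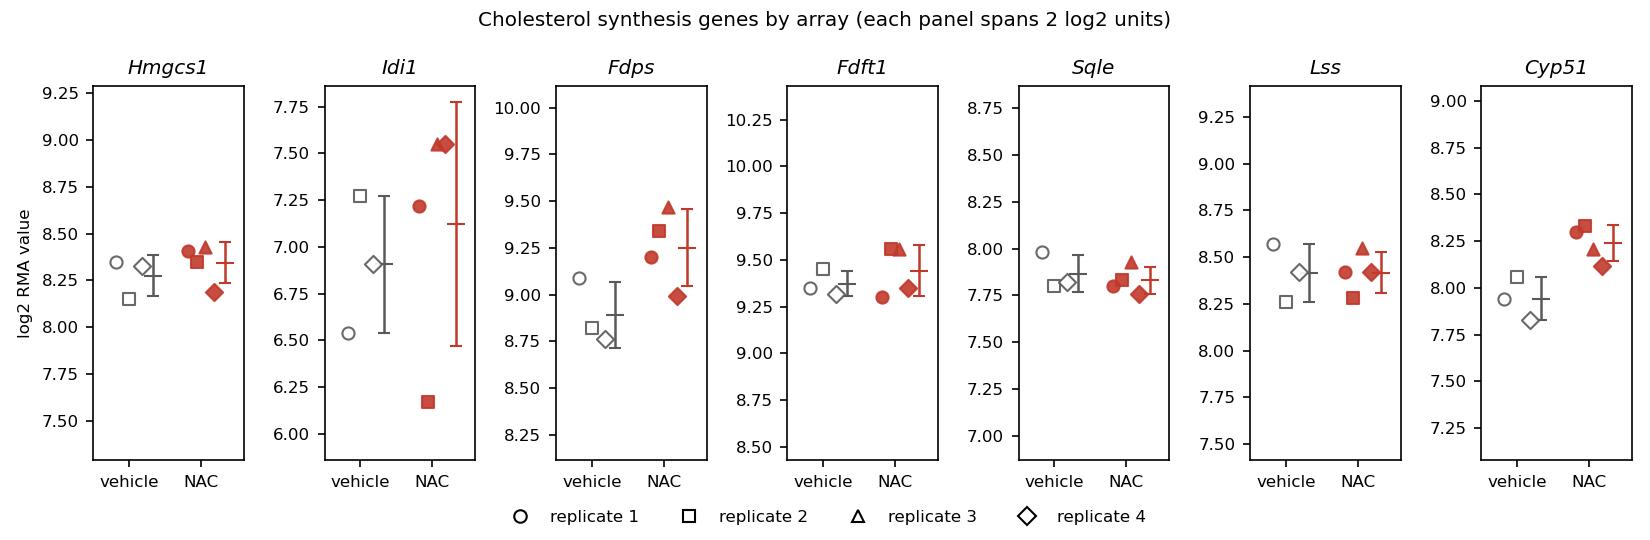
Log2 RMA value (vertical axis, 2 log2 units in every panel) of the 7 members on each array, with vehicle open and NAC filled, one marker shape per replicate number, and the mean with its SD beside the points (vehicle n = 3, NAC n = 4). The 4 NAC points of Cyp51, from 8.12 to 8.33, lie above the 3 vehicle points, from 7.83 to 8.06, while in the other 6 panels the groups overlap.

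Cyp51, the lanosterol demethylase, was the member with the clearest separation. Its log2 values were 7.94, 8.06 and 7.83 in vehicle replicates 1, 2 and 4, and 8.30, 8.33, 8.21 and 8.12 in NAC replicates 1 to 4. Every NAC mouse was above every vehicle mouse, and the closest pair, NAC replicate 4 and vehicle replicate 2, differed by less than either group's SD. The means were 7.94 ± 0.12 (SD, n = 3) and 8.24 ± 0.09 (SD, n = 4), a log2 difference of 0.29 (SE 0.07, 95% confidence interval 0.12 to 0.47). In limma the unadjusted p was 0.00481, the 38th smallest of all genes, and the adjusted p 0.827. An exact two-sided permutation test gave p = 0.0286, the smallest that the 35 ways of assigning 3 of 7 arrays allow. As each array in turn was left out, the difference stayed between 0.24 and 0.35 with an unadjusted limma p of 0.00303 to 0.0193; without NAC replicate 3 it was 0.31.

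Fdps, which makes farnesyl diphosphate, had the widest difference in means. Vehicle replicates 1, 2 and 4 read 9.09, 8.82 and 8.76, and NAC replicates 1 to 4 read 9.20, 9.34, 9.47 and 8.99. Of the NAC mice, replicates 1, 2 and 3 were above all vehicle mice, and replicate 4 was below vehicle replicate 1. From 8.89 ± 0.18 (SD, n = 3) to 9.25 ± 0.21 (SD, n = 4), the log2 difference was 0.36 (SE 0.13, interval 0.05 to 0.67, fold 1.03 to 1.59). Its limma p was 0.0291 unadjusted and 0.827 adjusted, and the exact permutation test gave p = 0.114. With single arrays left out, the difference ranged from 0.28 to 0.46. The unadjusted limma p was above 0.05 without vehicle replicate 2 (0.0899), vehicle replicate 4 (0.106), NAC replicate 2 (0.0714) or NAC replicate 3 (0.0662).

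Idi1, the isomerase that readies isoprenoid units for Fdps, varied between mice of the same group more than it differed between groups. Vehicle replicates 1, 2 and 4 had 6.54, 7.27 and 6.91. In the NAC mice the values were 7.22, 6.17, 7.55 and 7.55. NAC replicate 2 was the lowest of all 7 arrays and NAC replicates 3 and 4 the highest, a range of 1.38 log2 units, where the other members spanned 0.22 to 0.71. Only 92 of the 18938 genes (0.486%) had a larger SD over the 7 arrays than its 0.52. The vehicle mean was 6.91 ± 0.37 (SD, n = 3) and the NAC mean 7.12 ± 0.65 (SD, n = 4). The difference of 0.21 (SE 0.36) had an interval of -0.65 to 1.08, so fold changes from 0.637 to 2.12 were not told apart (limma adjusted p = 0.902, exact permutation p = 0.629). It moved from 0.03 without vehicle replicate 1 to 0.53 without NAC replicate 2, was 0.40 without vehicle replicate 2, and was 0.07 without NAC replicate 3 or without NAC replicate 4.

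Hmgcs1, at the head of the pathway, read 8.35, 8.15 and 8.33 with vehicle and 8.41, 8.35, 8.43 and 8.19 with NAC. NAC replicate 3 was the highest and vehicle replicate 2 the lowest, and the groups overlapped. The difference was 0.07 (SE 0.08, interval -0.11 to 0.25, limma adjusted p = 0.859). It ranged from 0.00 without vehicle replicate 2 to 0.12 without NAC replicate 4.

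Fdft1, the squalene synthase, had 9.35, 9.45 and 9.32 with vehicle and 9.30, 9.56, 9.56 and 9.35 with NAC. NAC mice held both ends of the range, replicate 1 at the bottom and replicates 2 and 3 at the top. The log2 difference was 0.07 (SE 0.08, interval -0.11 to 0.26, limma adjusted p = 0.857), and 0.04 to 0.12 as single arrays were left out. Sqle, the squalene epoxidase that is often described as a rate-limiting step of the sterol branch, read 7.98, 7.80 and 7.82 with vehicle and 7.80, 7.83, 7.93 and 7.76 with NAC. Its spread was the smallest of the 7 members, and the one member with a lower NAC mean differed by -0.04 (SE 0.06, interval -0.18 to 0.11, limma adjusted p = 0.90). Lss, the lanosterol synthase, had 8.57, 8.26 and 8.42 with vehicle and 8.42, 8.28, 8.55 and 8.42 with NAC. Vehicle replicates 1 and 2 were the highest and the lowest of its arrays, and the difference was 0.00 (SE 0.09, interval -0.21 to 0.22, limma adjusted p = 0.994). For these 4 genes the intervals leave room for fold changes between 0.866 and 1.2.

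Over the members together, NAC replicate 3 was the highest array. Relative to each gene's mean over the arrays, the members averaged -0.06, -0.06 and -0.12 in vehicle replicates 1, 2 and 4, and 0.06, -0.05, 0.21 and 0.02 in NAC replicates 1 to 4. Without Idi1, a choice made after its values were seen, these became 0.01, -0.11 and -0.12 with vehicle and 0.04, 0.08, 0.16 and -0.06 with NAC. Hmgcs1, Idi1, Fdps and Fdft1, 4 of 7 members (57.1%), had their highest value on NAC replicate 3, as did 7 of 31 other cholesterol genes (22.6%) and 15.1% of the 18583 genes with a single highest array. With that array left out, 5 of 7 members had a higher NAC mean and the members' median difference was 0.04. This is the array on which adipocyte, skeletal muscle and lung markers were high, and their part in the members' values was not tested.

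**Figure D2:**
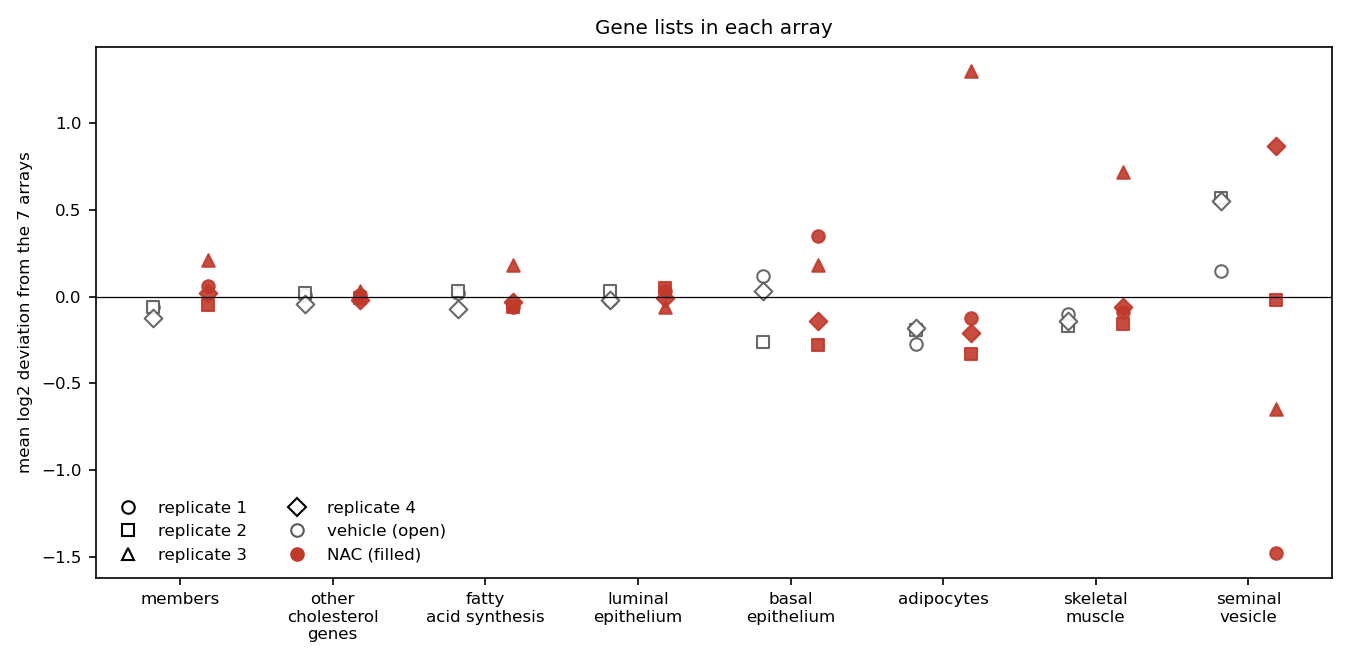
Mean log2 deviation from the 7-array mean (vertical axis) of the 7 members, of 2 other lipid gene lists and of 5 marker lists on each array (vehicle open, NAC filled, one shape per replicate number). NAC replicate 3 is at 0.21 for the members, at 1.3 for the adipocyte markers and at 0.72 for the skeletal muscle markers, while the luminal markers stay between -0.06 and 0.05.

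Across the 7 mice the members did not follow each other closely. Over the 21 pairs, Pearson's r ran from -0.29 to 0.75 with a median of 0.22, and 14 pairs were above 0. No pair passed Benjamini-Hochberg adjustment over the 21 (smallest adjusted exact permutation p 0.534 for r and 0.464 for Spearman's rho). The 6 pairs with Idi1 lay between -0.29 and 0.20. With 2 arrays left out, 8 of the 21 changed sign. These were the arrays farthest from the median of the gene that comes earlier in the pathway. A choice of arrays by the other gene of each pair was not tried. Fdps and Cyp51 had the highest r, 0.75 (exact permutation p = 0.0562; rho 0.79, p = 0.048), which was 0.67 without vehicle replicate 4 and NAC replicate 3. Within groups, that is as deviations from each group's mean, Fdps and Sqle had r = 0.92 and rho = 0.93. Their r was 0.85 without vehicle replicate 1 and NAC replicate 3. When the permutation test counted the 144 orders of arrays within groups alone, the p of r was 0.0139, adjusted 0.292. That count of orders was chosen after seeing the data. The planned permutation test, over all orders, gave p = 0.00198 for r (adjusted 0.0417) and 0.00675 for rho (adjusted 0.142). It moved deviations between groups although each was taken from its own group's mean, so these 2 p-values are not exact.

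The rest of the pathway showed little difference between the groups. Of the 31 other cholesterol genes measured, 18 had a higher and 13 a lower NAC mean, with a median log2 difference of 0.01. In limma 0 passed after adjustment, as did 0% of all genes. At an unadjusted p under 0.05, 0 were higher and 1 lower, against 1.89% and 2.53% of all genes. The groups were apart for 0, against 1.29% of all genes on the higher side and 2.18% on the lower. Among the other enzymes up to the isoprenoids, 2 of 4 measured were higher: Mvd, which makes isopentenyl diphosphate, differed by 0.17 (SE 0.12) and was highest on NAC replicate 3, Pmvk, the phosphomevalonate kinase, by 0.05 (SE 0.08), and Ggps1, which extends farnesyl to geranylgeranyl diphosphate, by -0.15 (SE 0.08). Without NAC replicate 3, 1 of the 4 was higher and Mvd differed by 0.07.

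Of the enzymes that follow or accompany Cyp51 after lanosterol, 6 of 8 had a higher NAC mean, with a median of 0.04. Msmo1, the methyl oxidase that acts after Cyp51, differed by 0.12 (SE 0.10), and Nsdhl, the next dehydrogenase, by 0.08 (SE 0.05). Msmo1 was 0.04 without NAC replicate 3. Lbr, a nuclear envelope protein with sterol reductase activity, was the gene at an unadjusted limma p under 0.05: it had 8.30, 8.43 and 8.37 with vehicle and 8.25, 8.24, 8.27 and 8.30 with NAC. Its groups met at 8.30, and the difference was -0.10 (SE 0.04, limma adjusted p = 0.827). The unadjusted limma p of Lbr was above 0.05 after a repeated quantile normalization (0.18) and without vehicle replicate 2 or 4 or NAC replicate 1, 2 or 3 (0.0577 to 0.11).

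Genes of SREBP control were nearly level. Srebf2, which encodes SREBP2, read 9.97, 9.90 and 9.85 with vehicle and 9.93, 9.93, 9.86 and 9.90 with NAC, a difference of 0.00 (SE 0.04, interval -0.09 to 0.09). Insig1, itself an SREBP target that holds SREBP back, differed by 0.09 (SE 0.12), and the value rested on NAC replicate 3, at 9.57 where the other 6 arrays had 9.06 to 9.25; without it the difference was -0.02. Scap at 0.04 (SE 0.07), Insig2 at 0.05 (SE 0.06) and the protease Mbtps1 at -0.07 (SE 0.05) were likewise within their errors or close to them.

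Of the genes for uptake and transport inside the cell, 4 of 8 had a higher and 4 a lower NAC mean, with a median of 0.00. Lrp1, an endocytic receptor for lipoprotein remnants, differed by 0.06 (SE 0.07), Npc1, which exports cholesterol from lysosomes, by -0.05 (SE 0.04), and Stard4, a cholesterol carrier, by -0.12 (SE 0.12), which was -0.21 without NAC replicate 3 and -0.05 without vehicle replicate 1. Among genes of efflux and storage, 1 of 5 was higher, with a median of -0.03; without NAC replicate 3, 3 of 5 were higher, with a median of 0.01. Nceh1, a cholesteryl ester hydrolase, differed by -0.17 (SE 0.12), and both Nr1h3, which encodes the sterol sensor LXR alpha, and the efflux pump Abcg1 by -0.03 (SE 0.04 and 0.05); the Abcg1 value was 0.01 without NAC replicate 3.

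**Figure D3:**
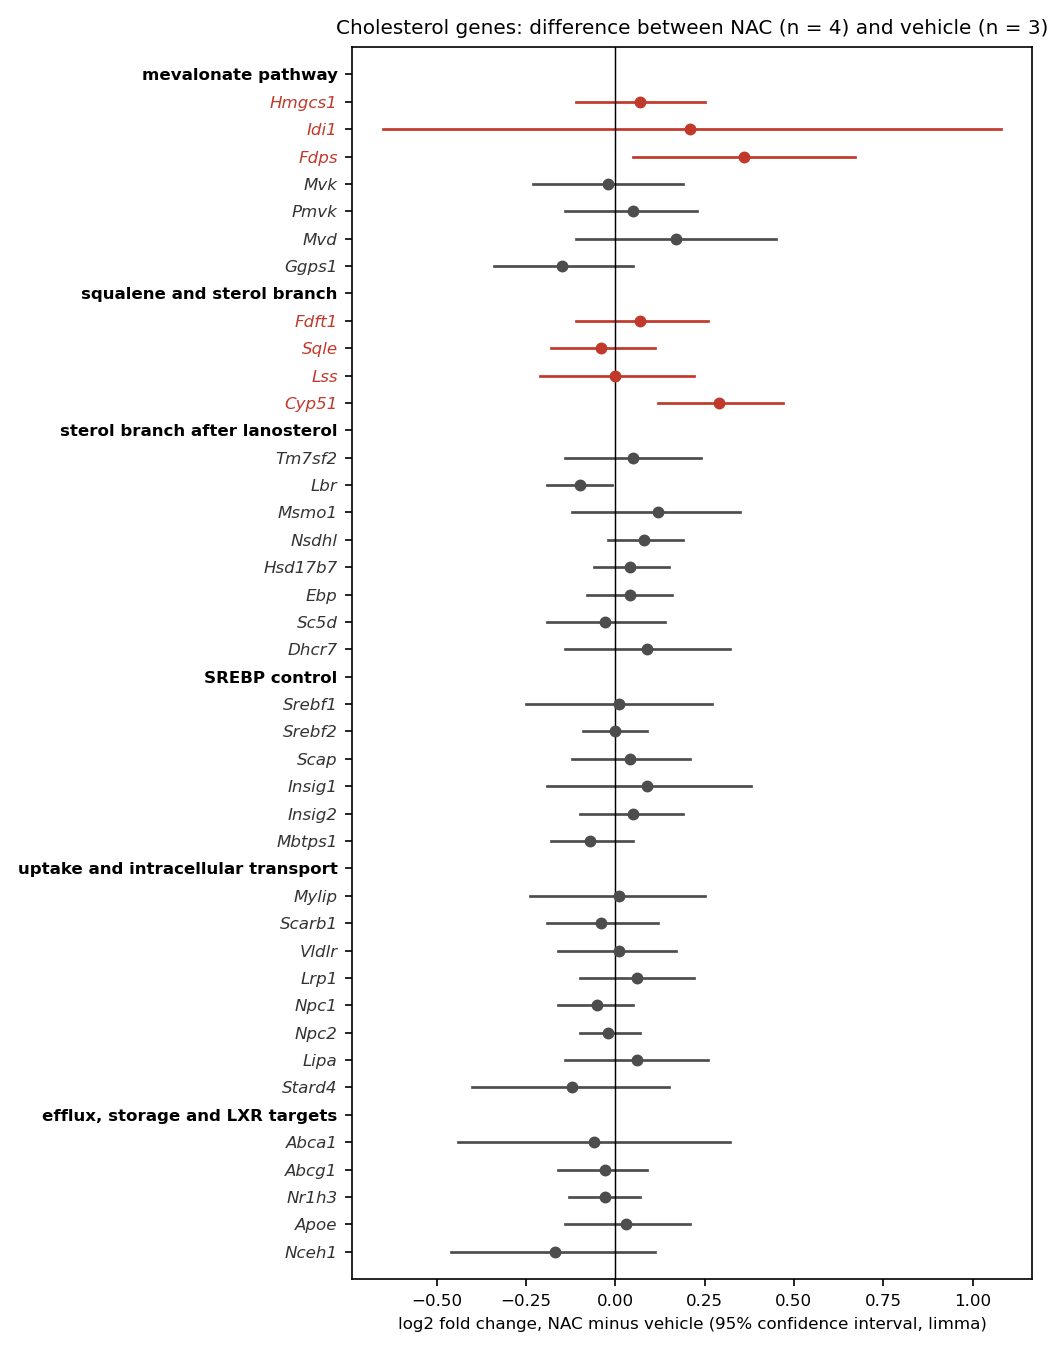
Log2 difference, NAC minus vehicle (horizontal axis), with its 95% confidence interval from limma for the 7 members (red) and the 31 other cholesterol genes (grey), grouped by role. The intervals of Fdps (0.05 to 0.67) and Cyp51 (0.12 to 0.47) lie above 0 and that of Lbr below it, all before adjustment over genes, and Idi1 has the widest interval.

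**Figure D4:**
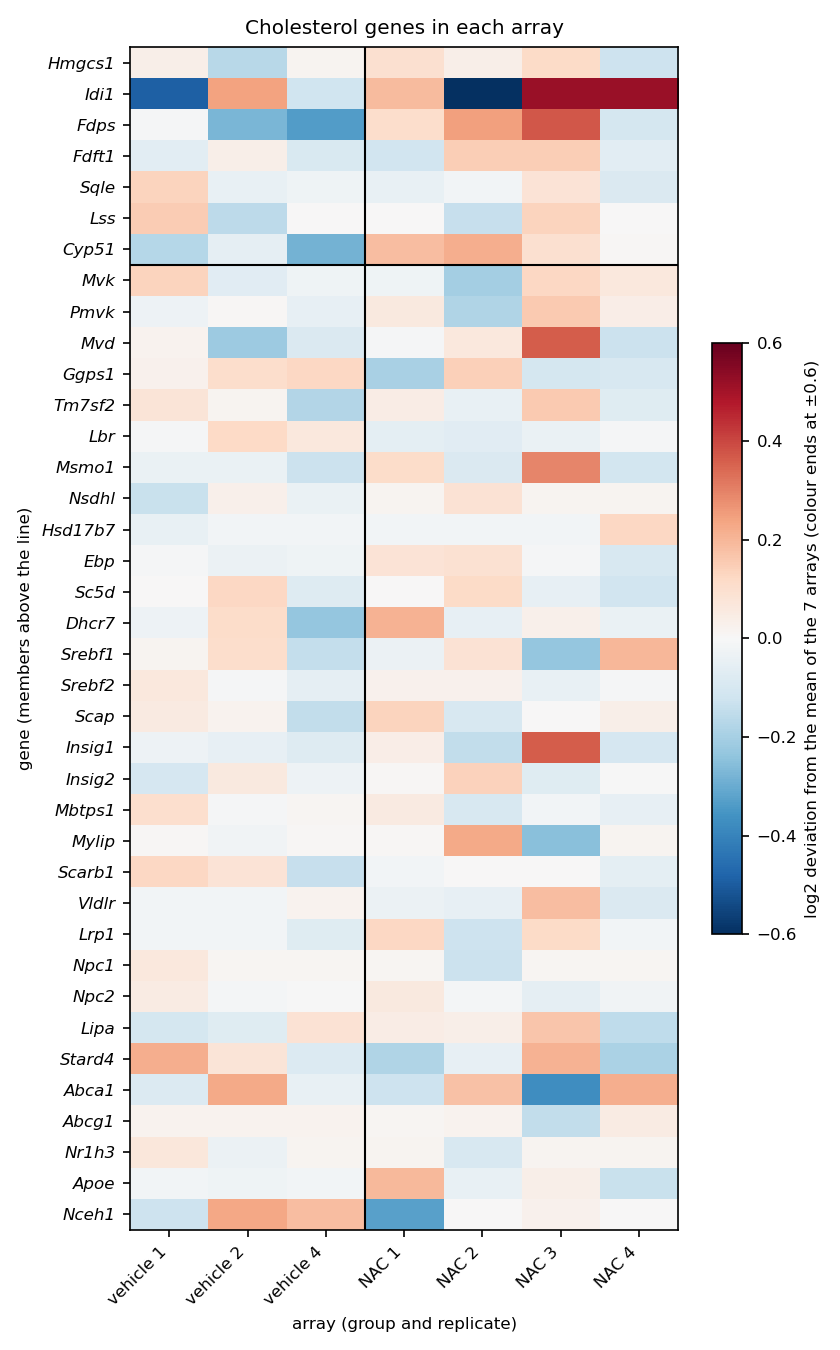
Log2 deviation of each cholesterol gene (rows, members above the line) from its mean over the 7 arrays (columns, vehicle left of the line), with blue below and red above the mean and the colour scale ending at 0.6 in either direction. Idi1 is past the end of the scale only on NAC replicate 2 and has the widest range of the rows, and Cyp51 is the row with all vehicle arrays below and all NAC arrays at or above its mean.

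Fatty acid synthesis genes, which SREBP1 drives, were set beside the members as another lipid pathway. Of 12 measured, 7 had a higher and 5 a lower NAC mean, with a median of 0.01. Acss2, which makes acetyl-CoA from acetate and so feeds both pathways, was the 1 gene of the 12 whose groups did not overlap. It lay on the lower side, as did 2.18% of all genes. Acss2 read 8.85, 9.17 and 8.95 with vehicle and 8.65, 8.82, 8.79 and 8.65 with NAC. Its difference of -0.26 (SE 0.08, limma adjusted p = 0.827) ran opposite to those of Fdps and Cyp51. Fasn, the fatty acid synthase, differed by 0.13 (SE 0.09) and the desaturase Scd1 by 0.12 (SE 0.11). Without NAC replicate 3 they differed by 0.08 and 0.03, without vehicle replicate 4 by 0.05 and 0.04, and Acss2 was -0.17 without vehicle replicate 2. As among the members, NAC replicate 3 was the highest array for many of them, 6 of 12.

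Lastly, the genes whose values over the 7 arrays were most like the members' mean were found by Pearson's r, as a description. The 10 nearest were Gfra2 (0.992), Abcd2 (0.967), Kncn (0.966), Mir202 (0.966), Cfap100 (0.964), Cyp2ab1 (0.964), Cygb (0.962), Pck1 (0.962), Gpc3 (0.961) and Wnt6 (0.961). All 10 were highest on NAC replicate 3, the array that stood apart. Of 18865 genes compared, 141 had r over 0.9, and 1 other cholesterol gene, Msmo1 (0.906), was among them. Without Idi1 in the mean, a choice made after its values were seen, 21 genes passed 0.9, led by Tonsl (0.967), Tpx2 (0.948), Lrr1 (0.943) and Tmem97 (0.934). Each of these named genes was again highest on NAC replicate 3. Of the genes on the list of other cholesterol genes, only Mvd (0.911) was among the 21. Fdps followed the mean of the 6 members most closely (r = 0.99, of which it is a part), and Idi1 had r = -0.10 with it.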

How the data were processed

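RNA of Nkx3.1-/- prostates was measured on 7 arrays, 1 mouse each, grouped by their labels. The authors deposited log2 values made in R with the affy package (RMA background correction, quantile normalization, median polish); the methods state their versions, which are not repeated here. Per the methods, another vehicle array failed quality control. All value columns belong to a sample (0 do not).

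Of 20696 probe sets, 18950 name 1 gene through the array's annotation, 678 several and 1068 none here; only the first were used. For the 18910 of 18938 genes whose Entrez identifier was in the gene table of GRCm38.p6, the symbol was taken from that table. Signal over background is lost in RMA values, and precision is limited by the small number of arrays.

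NAC was compared with vehicle by limma (version 3.58.1, under R 4.3.3), as a two-sided moderated fit without covariates and with Benjamini-Hochberg adjustment over all genes, and the fit was tested on simulated data. Permutation tests went through all orders in Python 3.11.15 with numpy 2.4.6. For the correlations, scipy 1.17.1 gave the ranks and the Benjamini-Hochberg adjustment. The members, lists and markers were chosen with earlier results of these data known. Named were the members, Srebf2 and Insig1, up to 3 further genes per role with the smallest unadjusted p, and the 10 genes most like the members' mean, passing over predicted genes, Riken clones and olfactory or vomeronasal receptors. Alternatives were another variance fit, array weights, 2 further normalizations, no dim genes (the lowest 40% by mean), other probe set rules, a replicate block and leaving out each array. Those without Idi1 and the orders within groups were added after seeing the data.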

Additional observations from a re-analysis of the deposited data

Results flagged for a closer look

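Within the NAC group of 4 arrays, a single array lay far from the other 3 in 6 of the 37 named genes tested, by Dixon's ratio of the gap to the range against its 95% critical value for 4 arrays. None of the 6 was one of the 7 synthesis enzymes. NAC replicate 2 was high in Nsdhl (8.59) and low in Npc1 (9.03) and Nr1h3 (7.00). Nceh1 was low on NAC replicate 1 (8.16). Gpc3 (7.57) and Wnt6 (6.71) were high on NAC replicate 3, and both had been named for their likeness to the members' mean, which is highest on that array. Chance flags about 1 in 20 such groups, and ties are common in these values: 7568 genes have 3 or more arrays equal in every deposited digit, among them Npc1 and Nr1h3.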

How the results depend on the processing

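Fdps, Cyp51, Idi1 and Fdft1 kept a higher NAC mean and an adjusted p above 0.05 in all 15 settings, and Hmgcs1 was 0.00 without vehicle replicate 2. The count of called genes was 0 under every setting but 1, at an unadjusted p under 0.05 it was 357 higher and 479 lower, and leaving out single arrays gave 0 to 1 called; the 1, Crip1, was lower without NAC replicate 4 and is no member. Leaving out single arrays gave 259 to 454 genes higher and 295 to 803 lower at an unadjusted p under 0.05. Without dim genes 140 were higher, of 11363 tested. The median of the other cholesterol genes was -0.02 to 0.03 as single arrays were left out, and 0.01 with all. Among the members' pairs, 0 Pearson correlations passed adjustment as deposited. As deviations from group means 1 passed over all orders, where the permutation p is not exact, and 0 passed with orders within groups alone. That 1 pair was Fdps and Sqle (adjusted permutation p = 0.292 within groups). It did not pass by Spearman's rho either (adjusted permutation p = 0.142 over all orders).

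Differences near 0 changed sign, none of them called. As single arrays were left out, Sqle ran from -0.07 to 0.02 (above 0 without vehicle replicate 1), Lss from -0.07 to 0.08 (below 0 without vehicle replicate 2 or NAC replicate 3), Srebf2 from -0.03 to 0.03, and Scap from -0.02 (without vehicle replicate 4) to 0.08. Insig1 ran from -0.02 to 0.16, Pmvk from 0.00 to 0.11 and Abcg1 from -0.06 to 0.01, all 3 changing sign without NAC replicate 3. Lss was -0.04, Insig1 -0.02, Pmvk 0.00 and Abcg1 0.01 with the replicate block, and Srebf2 0.00 with array medians subtracted. The cause was not tested.

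Replicate numbers were not shown to pair mice: deviations of same-numbered arrays correlated at 0.212, 0.286 and -0.067. With them as a replicate block, to which NAC replicate 3 adds nothing, 0 genes were called and 464 were higher and 492 lower at an unadjusted p under 0.05. Fdps was then 0.28 and Cyp51 0.31, and the unadjusted limma p of Lbr was 0.0883 and of Nceh1 0.00446.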
